A study of Rattus norvegicus with 61 samples.

Results

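The 6 genes described here make, load, take up or break down the inhibitory transmitters GABA and glycine. They are Gad1, Gad2, Slc32a1, Slc6a11, Slc6a5 and Abat, chosen by name from a list and found by NCBI Gene ID among the 14231 genes of the striatum and the 14129 genes of the cerebellum. All 6 were present in both regions and passed the filter on low counts in each. The libraries came from male adolescent Sprague-Dawley rats that carried a polymer implant under the skin of the back for 28 days, starting on postnatal day 28. The implant held 4-OH-PCB52, a PCB metabolite that carries a hydroxyl group, at 0% (sham), 1% (low), 5% (medium) or 10% (high) loading, so that sham rats also carried an implant. RNA of tissue punches was sequenced from the striatum (8 sham, 6 low, 8 medium and 8 high libraries) and the cerebellum (7, 8, 8 and 8), and libraries are named here by group and animal number.

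GABA is made from glutamate by 2 enzymes, GAD67 (encoded by Gad1) and GAD65 (encoded by Gad2), and is loaded into synaptic vesicles by VGAT, the product of Slc32a1, which also loads glycine. After release GABA is taken up by plasma membrane transporters, among them GAT-3 (Slc6a11) of astrocytes, and is broken down by GABA transaminase (Abat). Glycinergic neurons take glycine back up through GlyT2 (Slc6a5), a transporter known from the brainstem, the spinal cord and the Golgi cells and deep nuclei of the cerebellum. Most neurons of the striatum are GABAergic projection cells, while in the cerebellum GABA is made by Purkinje cells and interneurons, which are far outnumbered by glutamatergic granule cells.

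The windows just upstream of the 3 genes that define a GABAergic neuron are shown. They were chosen because these genes were low together in striatal low 20 and high 13. In these libraries the markers of striatal projection neurons were low as well. In striatal medium 41 and high 28 Gad2 was low, while Slc32a1 lay above its median. The part of the windows in these levels was not tested. The windows come from RefSeq (GRCr8, plus strand, 5′ to 3′, ending at the base before the gene's outermost annotated start). Capitals mark the motifs that were found. The motifs searched on both strands were the TATA box letters TATAAA, the CAAT box letters CCAAT, the GC box letters GGGCGG and the homeodomain core letters TAATTA, none of which overlaps another as searched. The Gad1 window (chr3:75777202-75777259) is short because the table's start lies downstream of the outermost start, the Gad2 window is chr17:89671468-89671717 and the Slc32a1 window is chr3:167686995-167687244.
Gad1: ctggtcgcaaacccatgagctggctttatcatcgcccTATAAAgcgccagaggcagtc
Gad2: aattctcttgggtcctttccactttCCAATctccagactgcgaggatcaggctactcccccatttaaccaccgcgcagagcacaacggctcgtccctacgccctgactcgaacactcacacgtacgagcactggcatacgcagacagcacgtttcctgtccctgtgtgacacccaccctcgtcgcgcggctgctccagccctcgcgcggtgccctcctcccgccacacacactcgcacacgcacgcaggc
Slc32a1: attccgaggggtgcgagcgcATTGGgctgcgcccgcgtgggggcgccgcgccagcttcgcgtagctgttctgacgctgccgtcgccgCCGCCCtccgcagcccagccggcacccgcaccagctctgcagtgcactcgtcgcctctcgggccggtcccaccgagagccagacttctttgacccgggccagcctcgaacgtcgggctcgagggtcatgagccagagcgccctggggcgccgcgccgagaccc

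No motif was found in all 3 windows, but only 58 bases were searched for Gad1. The CCAAT matches of Gad2 and Slc32a1 lay 225 and 230 bases before the start, and the GGGCGG of Slc32a1 163 bases. Matches that far upstream could not have been found for Gad1, so nothing is concluded from the difference. The 58 bases of Gad1 held 1 TATAAA, the Gad2 window 1 CCAAT, and the Slc32a1 window 1 CCAAT and 1 GGGCGG, both on the reverse strand. Among 33469 rat promoters, 12.9% held TATAAA, 34% CCAAT, 30.5% GGGCGG and 4.86% TAATTA in the 250 bases before the start. These shares do not apply to the shorter Gad1 window. The window of Slc32a1 was 73.6% G and C and that of Gad2 62.0%, against a median of 51.2% over those promoters. The upstream window of Slc6a11 (not printed) held 4 GGGCGG. The table's start of Slc6a5 lay inside the annotated gene, so its window was not used, and Abat had no entry.

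The smallest and largest striatal libraries held 5850199 and 10944066 reads, and the corresponding cerebellar values were 5420458 and 10994625. Levels are given as CPM, read counts adjusted for depth within each region, and levels of different genes are not compared, since transcript lengths were not used. Each region was scaled on its own, so ranges and counts of rats that set the 2 regions side by side use separate scales. Fold changes between regions come from 1 fit with joint scaling. A library was counted as standing apart when its mean over ribosomal protein transcripts, or over markers of its region's main neurons (striatal projection neurons or cerebellar granule cells), lay more than 1 log2 unit from the region's median. In the striatum 8 of 30 libraries did (2 sham, 1 low, 2 medium and 3 high), and in the cerebellum 10 of 31 (1 sham, 2 low, 4 medium and 3 high). Medium 8, medium 41 and high 28 stood apart in both regions. Striatal sham 17, low 20 and high 13 had 4.98, 5.49 and 5.69 log2 CPM over 17 projection neuron markers against a median of 9.20, and cerebellar low 22 had 3.77 over 12 granule cell markers against a median of 8.71, so these 4 libraries were low in the defining markers of their labelled tissue. The fold changes of the 6 genes are given with all libraries and without those that stood apart. In bulk tissue, fewer cells of a type and less RNA per cell cannot be told apart.

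In sham rats the regions differed in 4 of the 6 genes. Slc6a5 was higher in the cerebellum, Slc6a11, Gad2 and Slc32a1 were higher in the striatum, and Gad1 and Abat did not pass the test. The quasi-likelihood test of edgeR over both regions called 43% of 12616 genes (5431) at an adjusted p under 0.05, so that a called gene is common in this comparison. The median log2 fold change, cerebellum over striatum, was -0.60 over the 6 genes and 0.09 over all genes, and the median absolute log2 fold change was 1.05 against 0.49. The p-values measure the spread between these libraries. Each library carries an animal number, and the test did not use it as a pairing.

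Gad1 (NCBI Gene ID 24379), the enzyme that supplies most of the GABA of the cell body, was not called different between the regions. In sham striatum it ran from 273 CPM (sham 49) through a median of 421 to 607 CPM (sham 18). In sham cerebellum it ran from 152 CPM (sham 48) through a median of 495 to 565 CPM (sham 3). The groups overlapped, and the log2 fold change was 0.19 ± 0.31 (SE; 95% interval -0.44 to 0.82; adjusted p = 0.670 in edgeR), and 0.22 ± 0.13 (adjusted p = 0.124) without the libraries that stood apart. Of the 29 rats with both regions, 16 had more Gad1 in the cerebellum and 13 in the striatum.

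Gad2 (24380), the enzyme bound to synaptic vesicles, was lower in the cerebellum. Sham striatum held 96.2 CPM at the lowest (sham 48), 242 at the median and 301 at the highest, and sham cerebellum 18.6 (sham 48), 77.0 and 118 CPM. Only the 1 striatal library of sham 48 lay within the cerebellar range. The log2 fold change was -1.37 ± 0.42 (adjusted p = 0.00666 in edgeR), and 27 of 29 rats had more Gad2 in the striatum. Without the libraries that stood apart it was -1.32 ± 0.20 (adjusted p = 2.75e-07).

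The vesicular transporter Slc32a1 (83612) was also lower in the cerebellum, by less. Its sham levels were 229 CPM (sham 17), 308 and 381 CPM in the striatum, against 134 (sham 48), 184 and 221 CPM in the cerebellum. The groups did not overlap, but by a narrow margin (229 against 221 CPM) on separate scales. The log2 fold change was -0.74 ± 0.21 (adjusted p = 0.00292 in edgeR), with 27 of 29 rats higher in the striatum. It was -0.76 ± 0.09 (adjusted p = 8.04e-10) without the libraries that stood apart.

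The astrocytic GABA transporter Slc6a11 (79213) had the largest fall among the 6 genes. Sham striatum ran from 51.6 CPM (sham 18) through 81.7 to 188 CPM (sham 34), and sham cerebellum from 9.92 CPM (sham 48) through 15.1 to 22.8 CPM (sham 1). The groups did not overlap. The log2 fold change was -2.71 ± 0.64 (adjusted p = 0.000420 in edgeR), a change exceeded in size by 6.68% of genes, and 26 of 29 rats were higher in the striatum. The value was -2.64 ± 0.28 (adjusted p = 6.6e-11) without the libraries that stood apart. The sham means over 15 markers of astrocytes, 1 of which is also in the pathway list (Glul), were 8.08 ± 0.32 (SD, n = 8) log2 CPM in the striatum and 7.57 ± 0.29 (n = 7) in the cerebellum; the part of this difference in that of Slc6a11 was not tested.

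The glycine transporter Slc6a5 (171148) was near the detection floor in the striatum and plain in the cerebellum. Sham striatum ran from 0.145 CPM (sham 48) through 1.96 to 5.56 CPM (sham 17). Sham cerebellum ran from 3.47 CPM (sham 48) through 35.9 to 39.2 CPM (sham 32). The 2 ranges overlapped only through these extremes, since cerebellar sham 48 lay below striatal sham 17. The log2 fold change was 3.88 ± 0.54 (adjusted p = 3.14e-08 in edgeR) and 4.47 ± 0.27 (adjusted p = 4.82e-18) without the libraries that stood apart. All 29 rats with both regions had more Slc6a5 in the cerebellum.

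Abat (81632), the transaminase that degrades GABA, ran in sham striatum from 138 CPM (sham 49) through 226 to 306 CPM (sham 34) and in sham cerebellum from 86.5 CPM (sham 48) through 159 to 192 CPM (sham 32). The groups overlapped. Its log2 fold change of -0.47 ± 0.27 did not pass the test (adjusted p = 0.162 in edgeR), and it was -0.53 ± 0.10 (adjusted p = 2.67e-05) without the libraries that stood apart and -0.52 ± 0.12 (adjusted p = 7.20e-05) in limma-voom with quality weights. In 27 of 29 rats Abat was higher in the striatum.

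Of 24 other genes of GABA and glycine metabolism and transport, 7 were higher and 6 lower in sham cerebellum, and 11 did not pass (edgeR). The same test called 43% of all 12616 genes. The GABA transporters Slc6a13 (GAT-2; log2 fold change 2.49 ± 0.51) and Slc6a12 (BGT-1, which also carries betaine; 2.07 ± 0.55) were higher, as was the amino acid transporter Slc38a2 (1.02 ± 0.22). The serine synthesis enzyme Psat1 (-2.24 ± 0.34), glutamate dehydrogenase Glud1 (-1.02 ± 0.16), the glial glycine transporter Slc6a9 (GlyT1; -0.74 ± 0.27) and the serine and glycine converting enzyme Shmt1 (-0.74 ± 0.24) were lower. Slc6a13 ran from 12.1 through 21.8 to 309.8 CPM in sham cerebellum against 6.85, 11.9 and 17.8 CPM in sham striatum. Its highest library, sham 48, also had the highest mean over 10 markers of meningeal and perivascular fibroblasts, at 7.75 log2 CPM, in a list that itself holds Slc6a12 and Slc6a13. That mean ran from 3.84 to 7.75 in sham cerebellum (summed level 260 to 4932 CPM), and its part in the difference of Slc6a13 was not tested. Without the libraries that stood apart, sham 48 among them, the fold change of Slc6a13 was 1.16 ± 0.41 and that of Slc6a12 1.67 ± 0.58. In that fit 8 of the 24 were higher and 8 lower, where edgeR called 67.3% of 12529 genes.

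**Figure D1:**
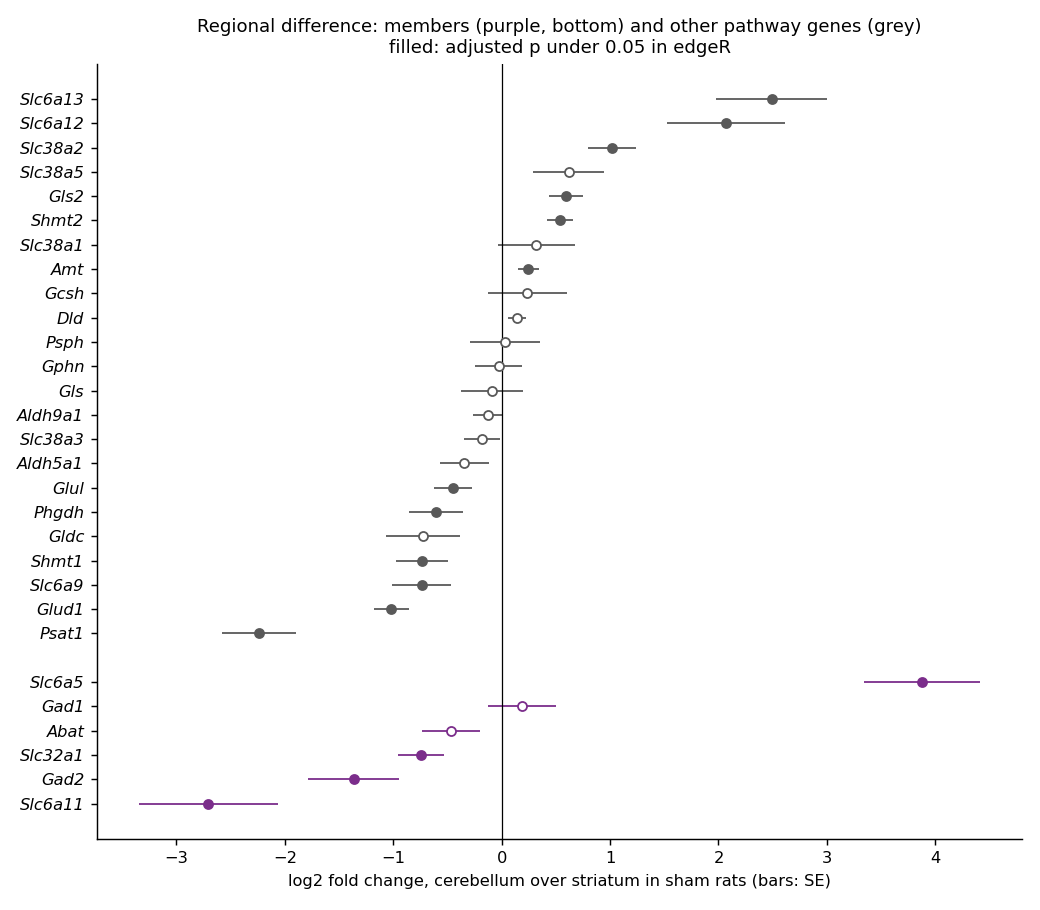
Log2 fold change of each gene, cerebellum over striatum in sham rats, with its standard error; purple points are the 6 genes described, grey points 23 of the 24 other genes of GABA and glycine metabolism and transport, and filled points passed the adjusted p threshold in edgeR. Slc6a5 lies at 3.88 and Slc6a11 at -2.71, with Gad1 (0.19) and Abat (-0.47) open.

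The 2 GABA enzymes were set against each other within each library, which leaves the scaling out. Gad2 over Gad1, a ratio of CPM, ran from 0.243 to 0.714 in the 30 striatal libraries (median 0.515) and from 0.0713 to 0.353 in the 31 cerebellar ones (median 0.195), and it is given as a description with no test. By group the striatal medians were 0.566 (sham), 0.481 (low), 0.505 (medium) and 0.489 (high), and the cerebellar medians 0.165, 0.212, 0.169 and 0.191. Each group's range overlapped those of the other groups of its region. The lowest ratios lay in libraries with high ribosomal protein transcripts, but not every such library had a low ratio. The 5 lowest striatal ratios, medium 41, high 28, high 59, sham 48 and low 37, held ranks 2, 1, 5, 6 and 8 of 30 by the ribosomal protein mean, and the next, sham 18, held rank 19. Striatal sham 49 and medium 8, at ribosomal ranks 3 and 4, had ratios of 0.452 and 0.494, nearer the median. In the cerebellum the lowest 4, medium 24, high 59, sham 48 and low 6, held ranks 5, 3, 4 and 9 of 31, and the next, sham 18, held rank 14. Cerebellar low 22, at ribosomal rank 6, had the highest ratio of the region, 0.353. The ratio of Slc32a1 to Gad1 was 1.02 in striatal high 28, 1.04 in striatal sham 49, 1.12 in striatal medium 8 and 0.880 in cerebellar sham 48, against sham medians of 0.747 and 0.370. The part of RNA quality or of the enrichment method in these ratios was not tested.

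**Figure D2:**
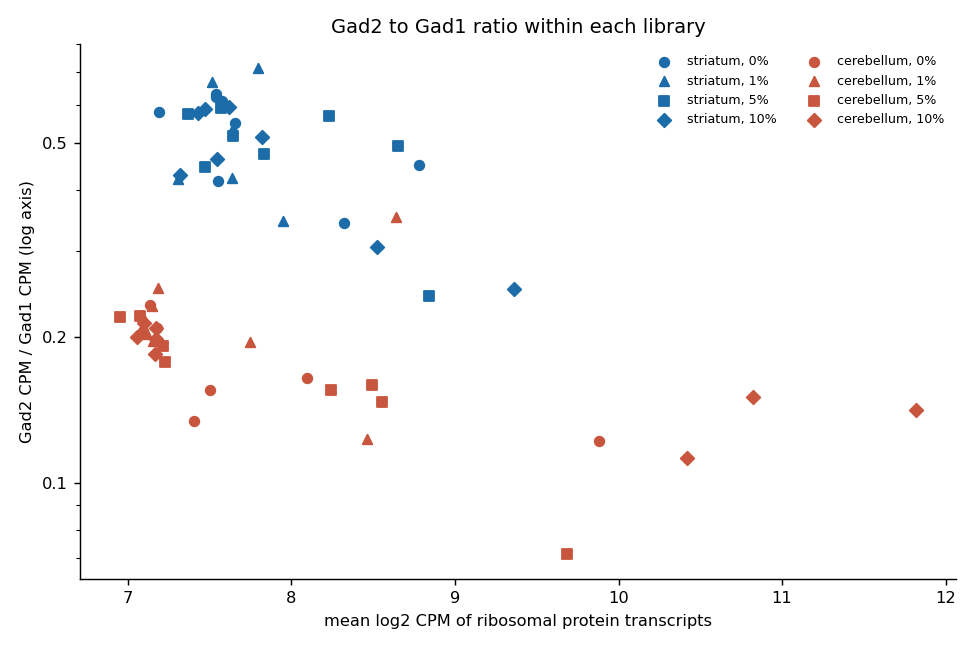
Ratio of Gad2 to Gad1 CPM (log axis) in each of 61 libraries against the mean log2 CPM of ribosomal protein transcripts; blue is striatum, red cerebellum, and the shape gives the loading. Striatal ratios of 0.243 and 0.251 (medium 41 and high 28) and the cerebellar ratio of 0.0713 (medium 24) lie at raised ribosomal means.

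None of the 6 genes passed the test for exposure in either region. In every comparison of a loading with sham, and in the trend with percent loading, edgeR called 0 of 6 genes, where it called 0% of the 12267 genes tested in the striatum and 0% of the 11946 tested in the cerebellum. At an unadjusted p under 0.05 stood 471, 453, 141 and 119 genes of the striatum (low, medium, high and trend) and 182, 170, 1394 and 2464 genes of the cerebellum. Of the 6 genes, 0 reached that level in the striatum, and Slc6a11 (low) and Slc32a1 (high and trend) did in the cerebellum. DESeq2 and limma-voom also called 0 of the 6, but DESeq2 was not empty over all genes. For the cerebellar trend DESeq2 called 831 genes, against 0 in edgeR, with Slc32a1 just short of the threshold at an adjusted p of 0.0505. The 3 comparisons of a region share their sham libraries and are not independent.

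**Figure D3:**
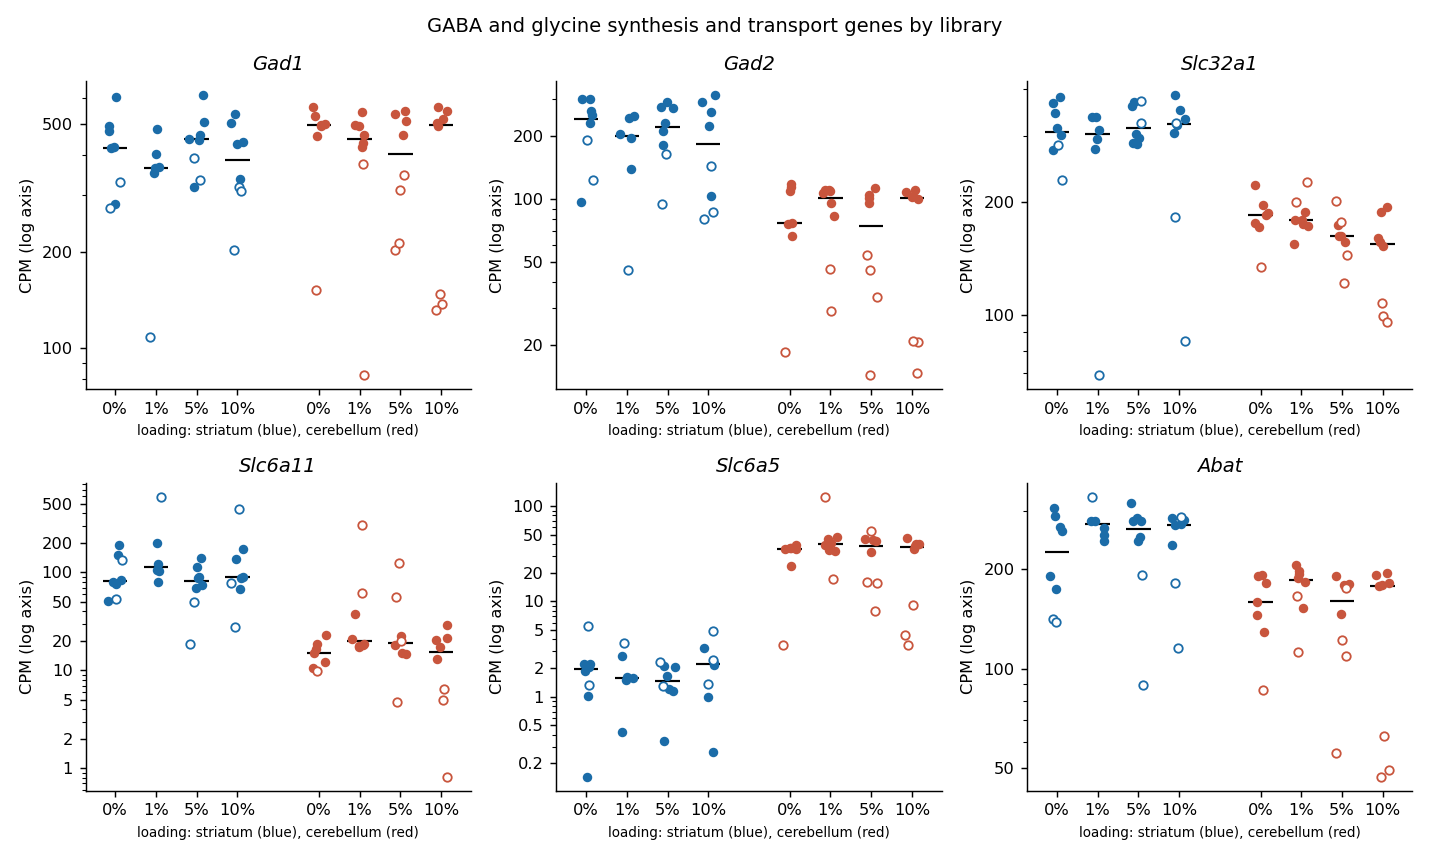
CPM (log axis) of each gene in every library by percent loading, in striatum (blue) and cerebellum (red); bars are group medians and open circles are libraries that stood apart. Group medians of Slc6a11 lie between 81.0 and 114 CPM in the striatum and between 15.1 and 19.7 CPM in the cerebellum, with single open circles at 591, 442 and 302 CPM.

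Gad1 ran in the exposed striatum from 109 CPM (low 20) through 365 to 483 CPM at the low loading, from 318 through 447 to 614 CPM at the medium and from 202 (high 13) through 385 to 535 CPM at the high loading. All 3 ranges overlapped the sham range. The log2 fold changes were -0.25 ± 0.24, 0.09 ± 0.22 and -0.10 ± 0.22 (adjusted p = 0.905, 0.9999 and 1 in edgeR). In the cerebellum the medians of 449 (low), 403 (medium) and 496 CPM (high) stood beside a sham median of 495 CPM. The lowest libraries were low 22 (82.6 CPM), medium 24 (202 CPM) and high 59 (131 CPM), and the fold changes of -0.14, -0.22 and -0.26 each had a standard error of 0.36. Leaving out the libraries that stood apart gave -0.19, 0.05 and 0 (to 2 decimals) in the striatum and -0.08, 0.04 and 0.07 in the cerebellum.

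Gad2 showed the same pattern of overlapping groups. Striatal medians were 200.3, 222 and 183 CPM at the low, medium and high loading against 242 CPM in sham, with the lowest libraries at 45.9 (low 20), 95 (medium 41) and 79.9 CPM (high 28). The log2 fold changes were -0.29 ± 0.35, -0.03 ± 0.32 and -0.23 ± 0.32. In the cerebellum the medians were 101, 74.5 and 101 CPM against 77.0 CPM in sham, and the fold changes of 0.06, -0.24 and -0.19 had standard errors of 0.45. They were -0.22, 0.02 and -0.02 in the striatum and 0.15, 0.16 and 0.19 in the cerebellum without the libraries that stood apart.

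Slc32a1 had the smallest p-value of the 6 genes for the trend in the cerebellum. Its cerebellar levels were 134, 184 and 221 CPM in sham (lowest, median and highest), 154, 179 and 226 CPM at the low, 121, 162 and 201 CPM at the medium and 95.3, 154 and 193 CPM at the high loading. The 3 lowest of all 31 values, 95.3, 99.3 and 107 CPM, were high 43, high 28 and high 59, the libraries with the highest ribosomal protein means of the region (11.8, 10.8 and 10.4 against a median of 7.21 log2 CPM). The slope was -0.36 ± 0.13 log2 per 10 percentage points of loading (95% interval -0.62 to -0.10; adjusted p = 0.0990 in edgeR), and the high group stood at -0.33 ± 0.15 against sham (adjusted p = 0.417 in edgeR). Without the libraries that stood apart the slope was -0.11 ± 0.08 (adjusted p = 0.671) and the high group -0.13 ± 0.08 (adjusted p = 0.608). The part of the ribosomal protein transcripts in the lower values was not tested. In the striatum the medians were 304, 315 and 323 CPM at the low, medium and high loading against 308 CPM in sham, and the log2 fold changes of -0.20, 0.06 and -0.13 were each smaller than their standard errors of 0.26, 0.24 and 0.24. They were -0.09, -0.06 and 0.04 without the libraries that stood apart, and the cerebellar low and medium groups then stood at -0.10 and -0.20.

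Slc6a11 gave the largest fold changes, with single libraries far above the rest of their groups. At the low loading its cerebellar values were 17.1 CPM at the lowest, 19.7 at the median and 302 CPM in low 22, with low 6 next at 61.6 CPM. The log2 fold change against sham was 2.03 ± 0.70 (adjusted p = 0.9999 in edgeR), and it was 0.45 ± 0.22 without the libraries that stood apart, low 22 and low 6 among them, and 0.80 ± 0.52 in DESeq2, which replaces outlying counts. At the medium loading the values ran from 4.71 through 19.1 to 124 CPM (medium 8), and the fold change of 1.18 ± 0.68 became 0.13 ± 0.25 without those libraries. At the high loading they ran from 0.821 CPM (4 reads in high 43) through 15.3 to 29.0 CPM, with a fold change of -0.08 ± 0.67. The 4 cerebellar medians lay between 15.1 and 19.7 CPM.

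In the striatum Slc6a11 reached 591 CPM in low 20 and 442 CPM in high 13. The other 28 striatal libraries stayed at or below 198 CPM. The low group stood at 0.97 ± 0.49 log2 against sham (adjusted p = 0.905 in edgeR) and at 0.22 ± 0.30 without the libraries that stood apart. The medium group stood at -0.35 ± 0.46, with its lowest library at 18.5 CPM (medium 41), and the high group, which holds high 13, at 0.43 ± 0.46. These were -0.13 ± 0.28 and 0.08 ± 0.30 without the libraries that stood apart.

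Slc6a5 was low throughout the striatum, with medians of 1.59, 1.47 and 2.20 CPM at the low, medium and high loading against 1.96 CPM in sham. The fold changes of -0.14, -0.44 and 0.09 had standard errors of 0.50, 0.47 and 0.46. In the cerebellum the medians were 40.2, 37.8 and 36.9 CPM against 35.9 CPM in sham. Single libraries set the ends of these ranges: low 22 had 126 CPM and medium 8 had 55.2 CPM, while high 43, high 59 and high 28 had 3.49, 4.49 and 9.08 CPM. The fold changes were 0.68 ± 0.52, 0.11 ± 0.52 and -0.14 ± 0.52, and each exposed group overlapped sham. Without the libraries that stood apart, low 22 among them, the values were 0.24 ± 0.11, 0.28 ± 0.13 and 0.25 ± 0.12, and in the striatum -0.04, -0.16 and 0.16.

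Abat had striatal medians of 273, 264 and 272 CPM at the low, medium and high loading against 226 CPM in sham. Its fold changes were 0.32 ± 0.22, 0.13 ± 0.21 and 0.13 ± 0.21 log2. In the cerebellum the medians were 186, 161 and 178 CPM against 159 CPM in sham, and the lowest libraries were again those with many ribosomal protein transcripts, at 47.2 (high 43), 49.5 (high 28), 55.8 (medium 24) and 62.8 CPM (high 59). The fold changes were 0.17, -0.10 and -0.20, each with a standard error of 0.29. With the libraries that stood apart left out they were 0.18, 0.08 and 0.17, and in the striatum 0.09, 0.15 and 0.12.

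All 6 genes had a negative log2 fold change at the high loading in the cerebellum, from -0.33 to -0.08, with a median of -0.19 against -0.03 over all 11946 genes. Without the libraries that stood apart, 5 of the 6 became positive (Gad1 0.07, Gad2 0.19, Slc6a11 0.35, Slc6a5 0.25 and Abat 0.17), and Slc32a1 stayed at -0.13. None of these values passed the test. The difference between the regions in the change from sham to high was not called for any of the 6 genes (0 of 6, where edgeR called 0.00793% of 12616 genes, 1 gene), and ran from -0.50 ± 0.82 for Slc6a11 to 0.07 ± 0.57 for Gad2. It ran from -0.19 for Slc32a1 to 0.25 for Slc6a11 without the libraries that stood apart. The 1 gene called was Ttr, the transthyretin of the choroid plexus, named after its values were seen. Ttr was highest in striatal sham 17 (11770 CPM) and cerebellar high 59 (8940 CPM), and neither the fit with the animal number as a replicate block nor the fit without the libraries that stood apart called any gene.

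**Figure D4:**
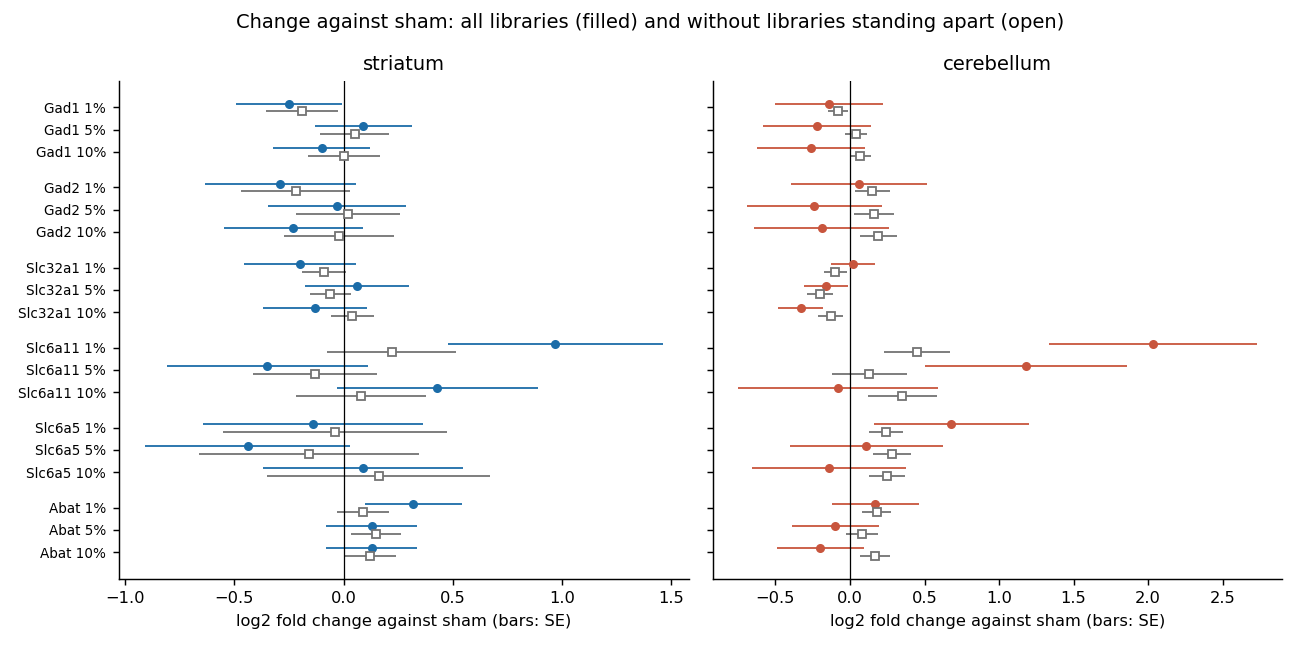
Log2 fold change against sham with its standard error for each gene and loading, from all libraries (filled) and without the libraries that stood apart (open squares). The filled point of Slc6a11 at 2.03 (cerebellum, 1% loading) has its open square at 0.45, and the one at 1.18 (5% loading) has its open square at 0.13.

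None of the 24 other genes of GABA and glycine metabolism and transport passed the test for exposure, among 23 tested in the striatum (all but Slc6a12) and 24 in the cerebellum. At the low, medium and high loading their median log2 fold changes were 0.11, 0.11 and 0.07 in the striatum, against -0.00, 0.02 and 0.02 over all genes, and 0.01, 0.02 and -0.08 in the cerebellum, against -0.03, -0.00 and -0.03. In the striatum the largest values in each direction were Aldh5a1, which oxidises the product of GABA transaminase (0.34 ± 0.16), and Psph, the last enzyme of serine synthesis (-0.23 ± 0.22), at the low loading. At the medium loading they were the amino acid transporter Slc38a5 (0.42 ± 0.18) and Slc6a9 (-0.13 ± 0.18), and at the high loading Slc38a5 (0.42 ± 0.18) and Slc6a13 (-0.26 ± 0.19). In the cerebellum they were Slc6a9 (0.58 ± 0.33) and Slc6a13 (-1.15 ± 0.66) at the low, Psat1 (0.77 ± 0.43) and Slc6a12 (-1.09 ± 0.56) at the medium, and the glycine cleavage protein Gcsh (1.06 ± 0.48) and Slc6a13 (-1.14 ± 0.66) at the high loading. For the difference between regions they were Gcsh (0.92 ± 0.51) and Slc38a5 (-1.19 ± 0.46).

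Several of the cerebellar values rested on libraries that stood apart. The sham range of Slc6a13 reached 309.8 CPM in sham 48, while its medians were 21.8 CPM in sham and 24.1, 24.9 and 29.0 CPM at the low, medium and high loading, opposite in direction to its fold changes. With these left out Slc6a13 was at 0.40 ± 0.54 (low) and -0.23 ± 0.57 (high). Slc6a9 had medians of 105 CPM in sham and 106 CPM at the low loading, with low 22 at 464 CPM, and its value became -0.06 ± 0.14. Gcsh had medians of 49.3 CPM in sham and 49.8 CPM at the high loading, with high 43 at 385 CPM, and its value became -0.12 ± 0.13. Psat1 and Slc6a12 at the medium loading became -0.16 ± 0.17 and -0.70 ± 0.65, and for the difference between regions Gcsh and Slc38a5 became -0.25 ± 0.22 and -0.39 ± 0.39. In the striatum Aldh5a1 and Psph (low) became 0.19 ± 0.09 and -0.08 ± 0.14, Slc6a9 (medium) -0.03 ± 0.13 and Slc6a13 (high) -0.11 ± 0.20, while Slc38a5 was at 0.40 ± 0.23 (medium) and 0.33 ± 0.24 (high).

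In single libraries that stood apart, the values of the 6 genes are set here beside markers of the cells in the punch. In striatal low 20 and high 13 the 3 genes of GABAergic neurons were low together: Gad1 at 109 and 202 CPM, Gad2 at 45.9 and 86.7 CPM and Slc32a1 at 68.9 and 85.0 CPM, against region medians of 411, 217 and 313 CPM. In the same 2 libraries Slc6a11 (591 and 442 CPM), Abat (331 and 287 CPM) and Slc6a5 (3.63 and 4.90 CPM) were above their medians of 88.5, 267 and 1.74 CPM. The list of septum, pallidum and thalamus markers, 8 of 10 tested, averaged 7.14 and 6.88 log2 CPM there against a median of 2.61. Slc17a6, the vesicular glutamate transporter of thalamic and other subcortical neurons, stood at 499 and 491 CPM against a median of 2.60 CPM and was at 0 in 3 of the 30 libraries. The summed level of the list ran from 76.0 to 844 CPM in sham, 69.1 to 2113 in low, 65.9 to 84.1 in medium and 49.9 to 1922 in high. Astrocyte markers averaged 8.54 and 8.49 in these libraries against a median of 8.38. The part of the tissue sampled in these values was not tested.

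Sham 17, the striatal library with the lowest mean over projection neuron markers (4.98 log2 CPM), went the same way in 5 of the 6 genes, by less in Gad1, Gad2, Slc32a1 and Slc6a11. Its Gad1 (329 CPM), Gad2 (191 CPM) and Slc32a1 (229 CPM) lay below the medians, its Slc6a11 (134 CPM) above, and its Abat (141 CPM), unlike that of low 20 and high 13, below. Its choroid plexus markers averaged 8.02 log2 CPM against a median of 1.28, and its septum, pallidum and thalamus markers 5.51 against 2.61. On the septum, pallidum and thalamus list a sham library that did not stand apart reached 5.83, above sham 17. Its Slc6a5 of 5.56 CPM rested on 58 reads and was the highest of the region.

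In the cerebellum low 22 stood alone. Purkinje cell markers averaged 4.58 log2 CPM against a median of 8.81 and granule cell markers 3.77 against 8.71, while myelin markers averaged 10.5 against 7.90. Gad1 (82.6 CPM) was the lowest of the region and Gad2 (29.2 CPM) low, whereas Slc32a1 (200.4 CPM) was above the median of 173 CPM, so that Slc32a1 over Gad1 was 2.43, the highest of all 61 libraries. Slc6a5 (126 CPM) and Slc6a11 (302 CPM) were the highest of the region. Of the 10 brainstem and hindbrain markers other than Slc6a5, 1 passed the filter, Slc17a6, at 95.5 CPM in low 22 against a median of 0.934 CPM. The hindbrain patterning genes Hoxb3, Hoxb4, Hoxb5 and Hoxc4 were at 0 in 23 to 26 of the 31 libraries and stood at 38.9, 22.4, 50.6 and 34 CPM in low 22. Slc17a6 is also in the septum, pallidum and thalamus list, so it is not particular to the brainstem. Its level ran from 0.527 to 2.37 CPM in sham, 0.380 to 95.5 in low, 0.230 to 53.3 in medium and 0.102 to 7.84 in high.

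Medium 8 and low 6 had the next highest Slc17a6, at 53.3 and 69.8 CPM, and differed in the genes described. Medium 8 had high Slc6a11 (124 CPM) and Slc6a5 (55.2 CPM), a myelin mean of 9.70 and Hoxb3 at 1.65 CPM. Low 6 had Slc6a11 at 61.6 CPM but Slc6a5 at 17 CPM, below the median of 36.0 CPM, with all 4 Hox genes at 0. Tcf7l2, 1 of the 6 tested genes of the septum, pallidum and thalamus list, was highest of the region in low 6, at 89.2 CPM. The other tested genes of that list are not given for low 6, so this gene alone does not place the tissue. The part of neighbouring tissue in these values was not tested.

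**Figure D5:**
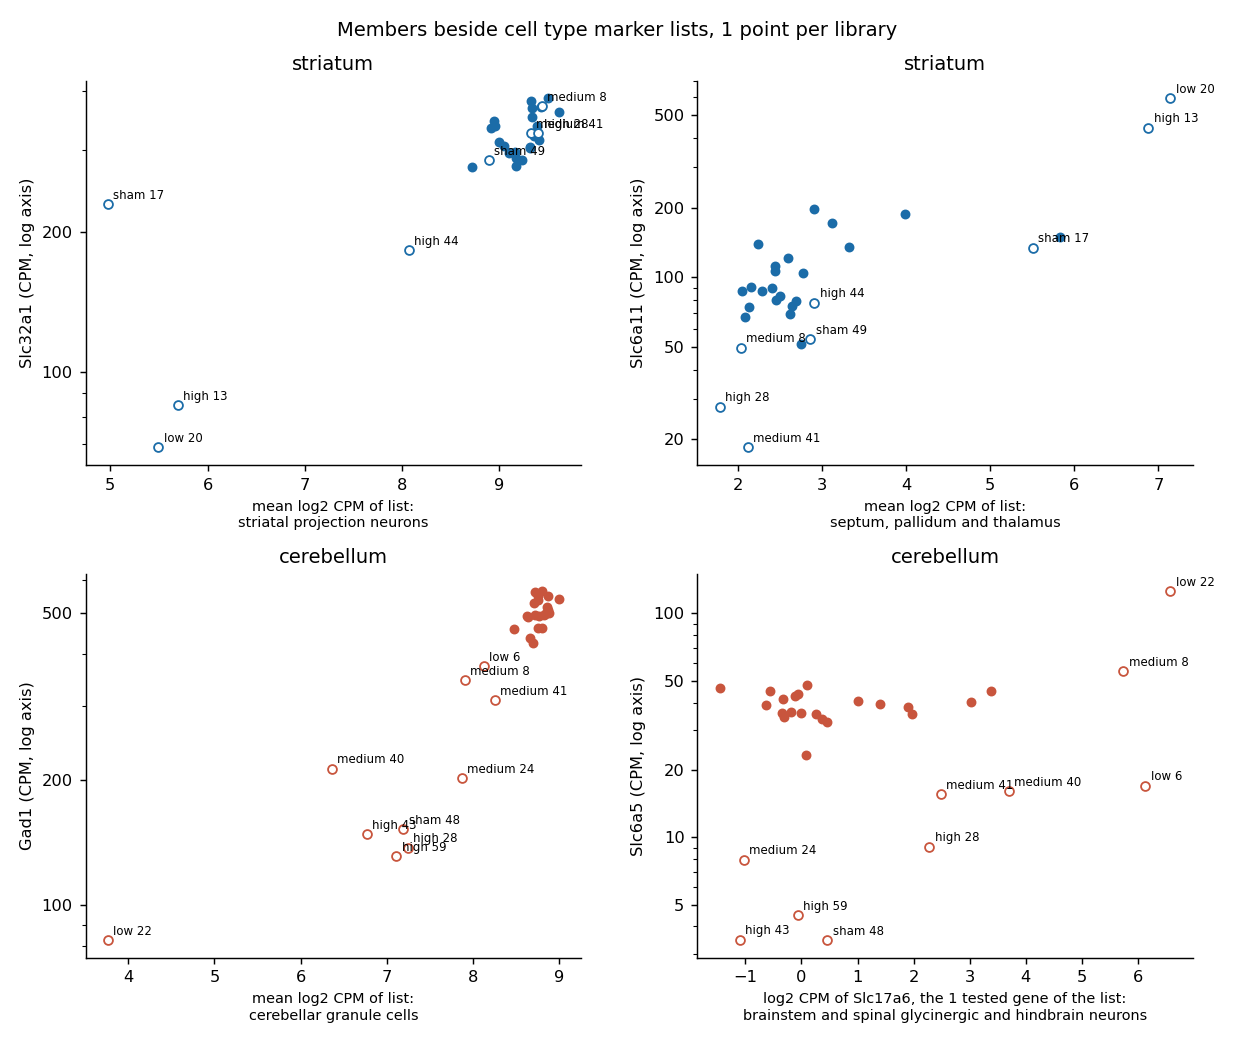
CPM (log axis) of Slc32a1 and Slc6a11 in striatal libraries and of Gad1 and Slc6a5 in cerebellar libraries against the mean log2 CPM of a marker list (for the brainstem list, Slc17a6 alone); open circles are libraries that stood apart, named by group and animal. Low 20 and high 13 lie at 68.9 and 85.0 CPM of Slc32a1 and at 591 and 442 CPM of Slc6a11, and low 22 at 82.6 CPM of Gad1 and 126 CPM of Slc6a5.

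The 5 cerebellar libraries with the highest ribosomal protein means had low values of all 6 genes. High 28, high 43, high 59, sham 48 and medium 24 had ribosomal protein means of 10.8, 11.8, 10.4, 9.88 and 9.69 log2 CPM. In these 5 libraries Gad1 lay between 131 and 202 CPM, Gad2 between 14.4 and 20.9 CPM, Slc32a1 between 95.3 and 144 CPM, Slc6a11 between 0.821 and 9.92 CPM, Slc6a5 between 3.47 and 9.08 CPM and Abat between 47.2 and 86.5 CPM. They came from 3 of the 4 exposure groups. The share of all genes that were low in these libraries was not counted. Over the 31 cerebellar libraries the median SD of log2 CPM was 0.61 for all genes. The share of genes with a larger SD ran from 3.46% (Slc6a11) to 84.8% (Slc32a1) over the 6 genes. Granule cell markers were below the median of 8.71 in all 5, at 7.24, 6.77, 7.11, 7.19 and 7.87, and markers of cerebellar inhibitory interneurons were below their median of 5.43, at 3.65, 3.07, 3.43, 3.82 and 4.02. Purkinje cell markers lay above their median of 8.81, at 9.49, 10.6, 9.60, 9.25 and 9.41. The part of cell make-up, RNA quality or the reads taken up by ribosomal protein transcripts in the low values was not tested.

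Outside the libraries that stood apart, the 6 genes varied less within the cerebellum. Over those 21 libraries Gad1 was 503 ± 39.99 CPM (SD; 424 to 565), Gad2 101 ± 13.9, Slc32a1 176 ± 16.9, Slc6a11 18.9 ± 5.95, Slc6a5 38.7 ± 5.62 and Abat 178 ± 19.9 CPM. The SD of log2 CPM fell from 0.78 to 0.12 for Gad1 and from 1.18 to 0.23 for Slc6a5, while the median over all genes fell from 0.61 to 0.22. In the striatum (22 libraries) Gad1 was 441 ± 85.5 CPM, Gad2 233 ± 60.9, Slc32a1 325 ± 34.3, Slc6a11 107 ± 40.5, Slc6a5 1.58 ± 0.818 and Abat 264 ± 33.0 CPM. There the SD of log2 CPM went from 0.70 to 0.47 for Gad2, from 0.98 to 0.51 for Slc6a11, from 0.88 to 0.84 for Slc6a5 and from 0.56 to 0.15 for Slc32a1, against 0.37 to 0.26 for the median over all genes. In the striatum the libraries left out were chosen by ribosomal protein transcripts or by markers of projection neurons, which are GABAergic. In the cerebellum all 10 stood apart by ribosomal protein transcripts, and some of them also by markers of granule cells, which are glutamatergic. The smaller spread follows in part from the choice.

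The genes whose pattern over the 61 libraries lay closest to each gene were found by the root mean square difference of centred log2 CPM, given as a description, since the libraries share region, tissue make-up and depth. Abat lay closest to Dag1 (dystroglycan), Abl1 (a tyrosine kinase) and Aldh5a1, the enzyme that follows it in GABA breakdown, with differences of 0.22, 0.23 and 0.23 against a median of 0.88 over 12616 genes. Gad1 lay closest to Sf3b3 (a splicing factor) and Irf2bpl (0.30 and 0.31 against 0.91), and Gad2 to St8sia3 (a sialyltransferase), Rps6ka5 (a kinase) and Osbpl8 (0.32 to 0.36 against 1.26). Slc32a1 lay closest to Entrep3, Grin3b (an NMDA receptor subunit) and Erlin1 (0.31 to 0.32 against 0.86). Slc6a11 lay closest to Ddah1, Asah2 and Gpr17 (0.67 to 0.76 against 1.77), and Slc6a5 to Ank1 (an ankyrin), Kcnc1 (a potassium channel) and Zfpm2 (0.97 to 0.98 against 2.27). None of the 6 genes was among the 3 nearest of another.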

How the data were processed

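Each region had 1 table of unnormalized gene counts, as the authors deposited them. The submitters' processing notes name the rn6 build, FastQC and HISAT2; versions, counting tool, annotation and strand setting: not given in the sources used here. Without strand, reads of overlapping antisense genes cannot be told apart. Per the labels' protocols, poly(A) capture or ribosomal RNA removal preceded library preparation, not said per library. Scaling factors came from the trimmed mean of M values, and low genes were filtered with filterByExpr, leaving 12267 (striatum), 11946 (cerebellum) and 12616 genes (both regions, used for the region comparisons). Tests were edgeR 4.0.16 quasi-likelihood fits (two-sided, Benjamini-Hochberg over all genes, threshold 0.05) in R 4.3.3, with limma 3.58.1 and DESeq2 1.42.0 as alternatives, tested on simulated data. Log2 CPM used a prior count of 2; the trend is per 10 percentage points. Marker lists leave out the 6 genes. Named genes were the 6, up to 4 pathway genes per direction past the threshold or else 1, and the 3 nearest patterns per gene; 2 genes that this rule names are not reported here. The 6 genes and the lists were chosen with earlier results of these data known. The animal number in the labels was taken as the same rat in both regions, and over 29 such pairs the correlation of deviations from group means ran from -0.24 to 0.82 (median 0.35), with 21 above 0.1. No column was left unmapped.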

Additional observations from a re-analysis of the deposited data

Results flagged for a closer look

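Of 48 groups checked (6 genes, 2 regions, 4 exposure groups), 10 held 1 library whose gap to the rest was large for the group's range. The rule's chance rate of about 1 group in 20 assumes independent groups of normally distributed values. These groups share libraries and CPM were used without logs, so the count is not weighed against that rate. In striatal low 20, Gad1 was 109 CPM (next lowest 352), Slc32a1 68.9 CPM (next 276) and Slc6a11 591 CPM (next highest 198). In striatal high 13, Slc6a11 was 442 CPM (next 172), and in striatal sham 17, Slc6a5 was 5.56 CPM (next 2.20). In cerebellar low 22, Gad1 was 82.6 CPM (next lowest 373), Slc6a11 302 CPM (next highest 61.6) and Slc6a5 126 CPM (next 47.7). In cerebellar medium 8, Slc6a11 was 124 CPM (next 55.7), and in cerebellar sham 48, Gad1 was 152 CPM (next lowest 459). The 6 libraries involved all stood apart by their marker or ribosomal protein means, and 6 of the 10 values were of Slc6a11 or Slc6a5 above their group, in low 20, high 13, sham 17, low 22 and medium 8.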

How the results depend on the processing

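Of the fold changes of the 6 genes under the alternatives, 330 kept their direction and side of the threshold, 2 (Abat between regions, -0.53 and -0.52, given above) passed it newly, and 46, none of them called in any setting, changed sign. The 4 called regional differences stayed called in all 8 alternatives. Without the libraries that stood apart, the changed values against sham in the striatum were Gad2 0.02 and Slc32a1 -0.06 (medium), Slc32a1 0.04 (high), and Gad2 0.08 and Slc32a1 0.06 (trend). In the cerebellum they were Slc32a1 -0.10 (low), Gad1 0.04, Gad2 0.16 and Abat 0.08 (medium), Gad1 0.07, Gad2 0.19, Slc6a11 0.35, Slc6a5 0.25 and Abat 0.17 (high), and Gad1 0.11, Gad2 0.14, Slc6a11 0.13, Slc6a5 0.16 and Abat 0.09 (trend). For the difference between regions they were Gad1 0.05, Slc6a11 0.25, Slc6a5 0.07 and Abat 0.03. In limma-voom with quality weights they were, in the striatum, Slc32a1 -0.08 and Slc6a11 0.03 (medium), Slc6a5 -0.12 (high), and Gad2 0.05 and Slc6a5 -0.04 (trend). In the cerebellum they were Slc32a1 -0.06 (low), Abat 0 (medium, to 2 decimals), Gad1 0.02, Gad2 0.08, Slc6a11 0.41, Slc6a5 0.12 and Abat 0.11 (high), and Gad1 0.07, Gad2 0.02, Slc6a11 0.14, Slc6a5 0.05 and Abat 0.02 (trend). For the difference between regions they were Gad1 0.09, Slc32a1 0.05, Slc6a11 0.27, Slc6a5 0.27 and Abat 0.07. No cohort was given per rat, so runs of 15 animal numbers were assumed to stand in for cohorts. With this run as a term, the striatal trend of Abat was -0.01. The cause of these changes was not tested.

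Counts of called genes moved by more than 1.5 times in 9 cases. DESeq2 called 831 genes for the cerebellar trend, with Slc32a1 at an adjusted p of 0.0505, against 0 in edgeR. Between regions limma-voom called 9086 genes, 5 of the 6 among them, and the fit without libraries that stood apart 8434, again with 5. For the difference between regions in high versus sham, DESeq2 called 4 genes and the unfiltered fit 6, while limma-voom, the run of animal numbers, the fit without libraries that stood apart and the replicate block for the animal number called 0 each. With the replicate block, which paired the regions of 29 rats, 5530 genes differed between regions in sham, 4 of the 6 among them. The block changed no other call. Of the 29 pairs, 5 correlated best with their own number, so the pairing rests on the animal numbers alone. Slc6a5 in the striatum rested on few reads (58 at the most in a library that stood apart), which limits what exposure change could be detected there.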
